A study of Mus musculus with 16 samples.

Results

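The muscle samples compared here were the 5 quadriceps libraries with the highest and the 5 with the lowest level of Myh7, the slow myosin heavy chain gene, out of 16 libraries in all. They were chosen by their measured Myh7 level in CPM (counts scaled to the library's total, the usual unit of library-size-scaled counts), by which all libraries were ranked, whatever their group. The highest 5 are called slow-rich and the lowest 5 slow-poor below, and the 6 libraries between them are described only. Because Myh7 itself chose the sets, and every gene was measured in the same RNA, the contrast between them is a description and carries no test.

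The series sequenced total RNA from the quadriceps, the mouse's knee-extending thigh muscle. The labels give 4 groups of 4 libraries: quadriceps of a healthy limb or of a limb whose anterior cruciate ligament (ACL) had been cut, from mice given a placebo (0.5% sucrose in the drinking water) or a CSF1-R inhibitor (40 mg/kg, also in the water), over the 7 days after the cut. CSF1-R is the receptor through which macrophages receive growth and survival signals. By the stem of their names the libraries form 8 pairs of a healthy and an injured limb, and each pair was read as 1 animal, although the design is described there as before against after the cut. Genotype, strain, age and sex, and which part of the quadriceps was taken, are not given in the labels used here.

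Skeletal muscle is a mosaic of slow (type I) and fast (type IIA, IIX and IIB) fibres, each named for its myosin heavy chain, the motor protein of the thick filament. Slow fibres hold slow forms of the troponins, myosin light chains, tropomyosin and the calcium pump, contract slowly, and rely on mitochondria and myoglobin. The mouse quadriceps is a mostly fast muscle whose few slow fibres lie mainly in its deep parts. In bulk RNA, fewer slow fibres and less slow RNA per fibre cannot be told apart.

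The slow-rich set held injured placebo 3 at 1676 CPM of Myh7, injured inhibitor 1 at 1514, healthy inhibitor 1 at 1279, injured inhibitor 2 at 1178 and injured inhibitor 3 at 776. The slow-poor set held healthy placebo 3 at 112 CPM, injured inhibitor 4 at 51.4, healthy placebo 1 at 25.4, injured placebo 4 at 17.5 and healthy inhibitor 2 at 5.29. The highest library was 317-fold above the lowest, and the mean of the rich set was 30.3-fold above that of the poor set. At the upper edge the step was small, from 776.5 CPM just inside to 765.4 in healthy placebo 2 just outside. At the lower edge 112.4 CPM lay just inside and 183.0 in healthy inhibitor 4 just outside. The 6 libraries between ran from 183 to 765 CPM.

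The rich set held 4 injured limbs and 1 healthy limb, and 4 inhibitor and 1 placebo library, from 4 animals, since both limbs of inhibitor animal 1 were in it. The poor set held 2 injured and 3 healthy limbs, and 2 inhibitor and 3 placebo libraries, from 5 animals. Library totals were 20.1 to 24.3 M (mega) counts in the rich set and 23.3 to 27.1 M in the poor set. Mitochondrially encoded genes took 12.5 to 18.5% of the counts in the rich set and 11.5 to 15.3% in the poor set. Injured placebo 3 and healthy inhibitor 1 are also among the 4 libraries highest in Prg4 (lubricin, made by the joint lining), with 318 and 168 CPM, while the other 3 rich libraries had 9.74 to 12.7 and the poor libraries 3.76 to 17.9. The other 2 of those 4 were injured placebo 2 and healthy placebo 4, both between the sets.

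Tnni1, the slow troponin I, and Tnnc1, the troponin C of slow and cardiac muscle, placed the libraries in nearly the same order. In the rich libraries, in the order given above, Tnni1 was at 152, 101, 93.3, 80.5 and 53.1 CPM, and in the poor libraries at 7.13, 3.69, 2.03, 1.63 and 0.774 CPM. Tnnc1 was at 211, 137, 114, 103 and 72.6 CPM in the rich and at 9.95, 4.58, 2.99, 2.70 and 1.18 CPM in the poor libraries. Both genes ordered the 5 libraries of each set as Myh7 did, and the sets did not overlap. Ranking by Tnni1 exchanged 1 rich library, bringing in injured placebo 2 (62.2 CPM of Tnni1), and the mean of the 3 genes gave the same 10 libraries.

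**Figure D1:**
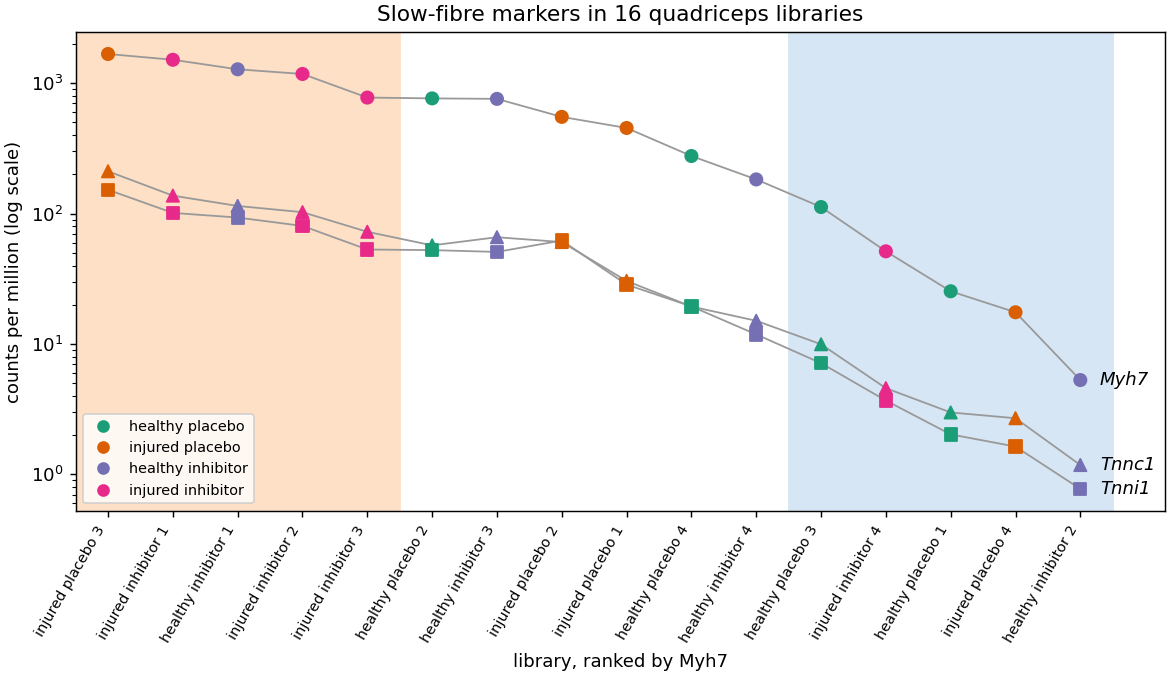
Myh7, Tnnc1 and Tnni1 in CPM (y axis, log scale) in each of the 16 libraries, ordered by Myh7 (x axis) and coloured by labelled group, with the slow-rich set shaded orange and the slow-poor set blue. The 3 markers decline together from 1676 to 5.29 CPM for Myh7, and every group but healthy placebo has libraries in both shaded sets.

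The region before the start of each marker gene is printed because the 3 genes moved together over the libraries, and muscle genes are known to be read by MEF2, TEAD and MyoD-family factors at short motifs there. The sequences are the 250 bases before a RefSeq start, 5′ to 3′ on the gene's strand, from GRCm38.p6. Capitals mark the TEAD-binding MCAT motif (CATTCC or its reverse complement GGAATG) and a MEF2 core (TAAAAATA or TATTTTTA). They lie at chr14:54994627-54994876 on the minus strand for Myh7, chr1:135799261-135799510 on the plus strand for Tnni1 and chr14:31208062-31208311 on the plus strand for Tnnc1.
Myh7: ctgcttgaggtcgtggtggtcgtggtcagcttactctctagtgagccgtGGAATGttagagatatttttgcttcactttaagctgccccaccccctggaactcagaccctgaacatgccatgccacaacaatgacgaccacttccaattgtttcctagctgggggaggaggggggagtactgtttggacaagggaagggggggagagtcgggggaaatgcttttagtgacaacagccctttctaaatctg
Tnni1: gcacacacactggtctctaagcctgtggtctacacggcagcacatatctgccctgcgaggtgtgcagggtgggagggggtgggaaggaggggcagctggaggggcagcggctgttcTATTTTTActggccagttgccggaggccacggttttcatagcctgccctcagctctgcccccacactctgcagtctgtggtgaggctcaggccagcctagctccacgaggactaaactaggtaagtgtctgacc
Tnnc1: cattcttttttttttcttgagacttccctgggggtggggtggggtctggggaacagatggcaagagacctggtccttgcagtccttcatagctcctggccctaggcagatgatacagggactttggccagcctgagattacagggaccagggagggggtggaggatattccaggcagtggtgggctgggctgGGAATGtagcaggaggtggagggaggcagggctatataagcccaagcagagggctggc
Myh7 and Tnnc1 each held 1 MCAT motif and Tnni1 held 1 MEF2 core, and all 3 windows held an E-box (CANNTG). The Tnni1 window is before the more downstream of 2 listed starts and lies inside the gene's annotated span. Over both strands, an MCAT motif was in 12.6% of 32851 promoter windows of this length, an E-box in 66.2% and the MEF2 core in 2.45%. Of the 18 slow genes with a window, 3 held MCAT, 17 an E-box and 3 the MEF2 core. A match is a run of letters and not a measured binding site.

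The slow myosin genes Myh7 and Myh7b each carry a microRNA within their span, on the same strand. Their mature forms, from RefSeq on GRCm38.p6, are shown because their host genes were both higher in the rich set, with the seed (bases 2 to 8) in capitals.
mmu-miR-208b-3p: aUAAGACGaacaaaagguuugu
mmu-miR-499-5p: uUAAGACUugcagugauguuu
Bases 2 to 7 of the seeds are identical. The first lies at chr14:54975710-54975731 (minus strand) inside Myh7, and the second at chr2:155622893-155622913 (plus strand) inside Myh7b, which had a mean of 8.94 ± 2.76 CPM (SD, n = 5) in the rich set and 2.62 ± 0.677 in the poor set. The microRNAs themselves are not analysed here.

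Genes were called separated when every value of 1 set lay above every value of the other and the means of log2(CPM + 0.5) differed by at least 1, that is 2-fold on that scale. Of 13152 genes with a mean of at least 1 CPM, 78 were separated with higher values in the rich set (0.593%) and 2 with lower values (0.0152%), 80 in all (0.608%). Without the size threshold, 358 (2.72%) were higher and 216 (1.64%) lower. These shares follow from the ranking and are read no further. Leaving out injured inhibitor 2 or injured inhibitor 4 moved the count of 78 to 191 or 141, and leaving out healthy placebo 3 moved that of 2 to 31. For 71 of the 78, the median of the 6 libraries between lay between the medians of the 2 sets. The median log2 difference of all genes was 0.06, with 90% of genes between -0.28 and 0.69.

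Of the 20 genes in a list of slow sarcomere and calcium-handling genes, 18 were separated and higher in the rich set, beside 0.593% of all genes. The list's median log2 difference was 2.10. Myh7, which chose the sets and was separated by that choice, is counted here and in all later counts of the 20. Thin filament genes had some of the largest differences. Tnnt1, the slow troponin T, was at 198, 141, 118, 99.5 and 68.0 CPM in the rich and at 13.6, 7.46, 2.65, 4.41 and 2.47 CPM in the poor libraries, a log2 difference of 4.42 against 5.50 for Myh7, 4.96 for Tnni1 and 4.92 for Tnnc1. Tpm3, the slow tropomyosin, was at 99.8 to 258 CPM in the rich and 15.2 to 25.4 CPM in the poor libraries (log2 difference 3.07).

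Of the light chains of slow myosin, Myl3 was at 334, 373, 308, 307 and 255 CPM in the rich and at 85.2, 16, 7.78, 8.42 and 7.04 CPM in the poor libraries. Healthy placebo 3, the poor library with the most Myh7, stood well above the other 4 poor libraries in Myl3. Myl2 was at 161 to 264 CPM against 15.3 to 43.1, a log2 difference of 2.99. Myl6b, a further light chain, differed by less, at 6.21 to 25.4 CPM against 3.39 to 4.94 (1.31).

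Calcium-handling genes of slow fibres were separated too. Atp2a2, the slow and cardiac calcium pump SERCA2, was at 941, 816, 684, 718 and 515 CPM in the rich and at 101, 85.5, 65.3, 49.7 and 44.8 CPM in the poor libraries (log2 difference 3.44). Sarcolipin (Sln), a small inhibitor of that pump, had a wide spread within the rich set, at 23.5, 19, 17.8, 7.36 and 3.71 CPM, and 0.590 to 1.6 CPM in the poor set (2.97). Phospholamban (Pln), the other inhibitor, had 2.17 to 3.43 CPM against 0.409 to 1.40 (1.21), and its highest value of all, 4.5 CPM, was in healthy placebo 2, just outside the rich set. Casq2, the slow and cardiac calsequestrin that binds calcium in the store, had 54.8 to 80.9 CPM against 11.8 to 21.2 (2.10).

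Structural and stretch-responsive members of the list had differences near 4-fold or below. Myoz2, a Z-disc protein that binds calcineurin, had a mean of 113 ± 30.7 CPM in the rich and 26.0 ± 7.26 in the poor set (SD, n = 5 each, as in all such values below). Ankrd2, a muscle ankyrin repeat protein, had 92.7 ± 28.1 CPM against 22.3 ± 8.34. Csrp3, the muscle LIM protein, had 81.7 ± 26.8 CPM against 21.0 ± 12.5. Myom3, an M-band protein of intermediate fibres, had 92.7 ± 21.7 CPM against 34.6 ± 13.6, and Lmod2, an actin nucleator, 160 ± 47.3 against 62.9 ± 15.1. Among injured limbs alone, comparing the 3 highest with the 3 lowest in Myh7, 12 of the 20 were separated (4.33% of all genes were higher without overlap there), and Myoz2, Ankrd2, Csrp3, Myom3, Lmod2 and Myl6b were among those that overlapped. In healthy limbs alone 18 of the 20 did not overlap (14.7% of all genes), and 16 of them differed at least 2-fold. Most libraries of these limb sets were also in the main sets, so these counts are not a separate check.

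The list also held 2 genes that did not follow Myh7. Hrc, a histidine-rich calcium-binding protein of the sarcoplasmic reticulum, had 791 ± 66.9 CPM in the rich and 828 ± 21.9 CPM in the poor set. Actc1, the cardiac and embryonic actin, had 451 ± 339 CPM and 439 ± 254 CPM, with values from 95.9 to 1032 CPM in both sets together.

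**Figure D2:**
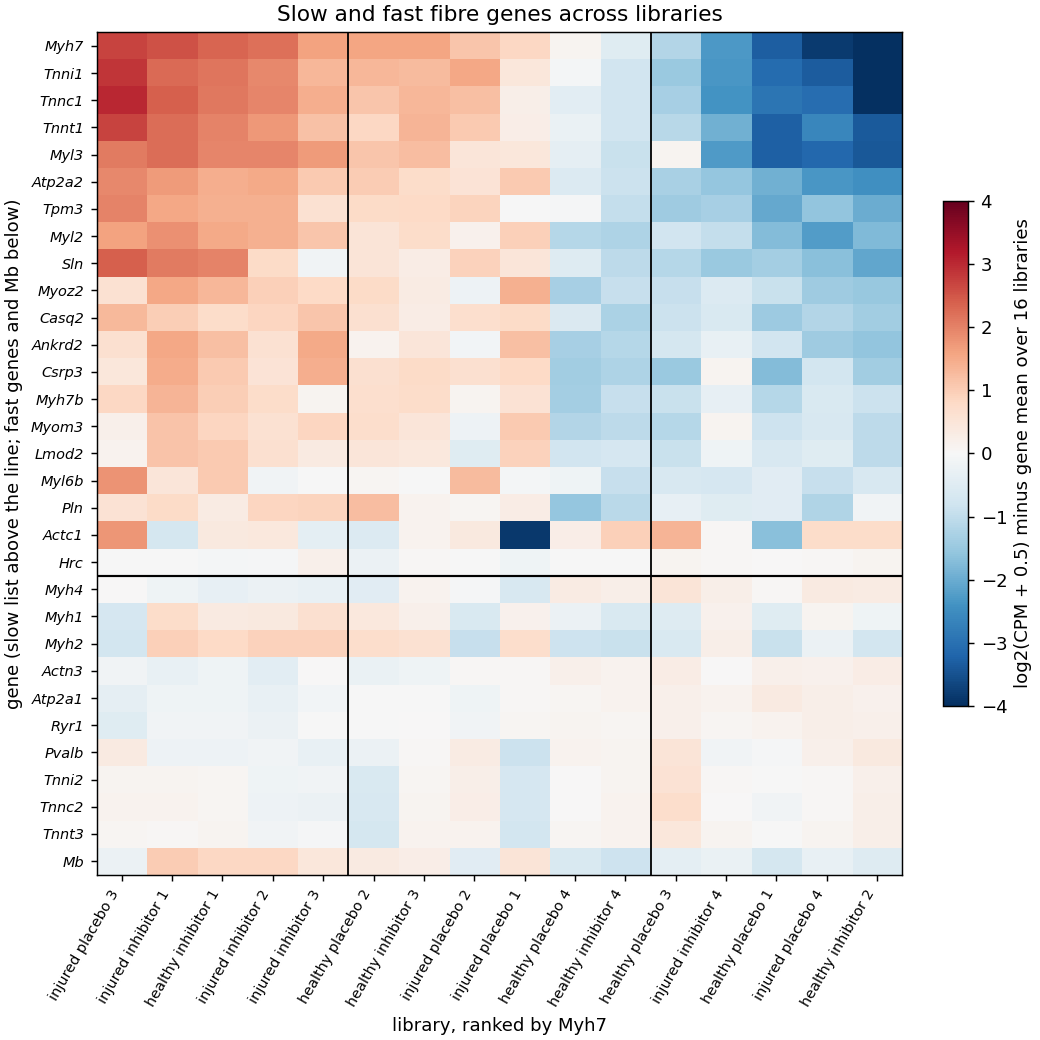
Log2(CPM + 0.5) of 31 genes (rows) in 16 libraries ordered by Myh7 (columns), each gene centred on its mean over the libraries, with red above and blue below the mean and colours limited to 4 log2 units either way. Above the horizontal line all slow-list genes but Actc1 and Hrc run from red to blue, and below it Myh2 and Mb are low in injured placebo 3, the library with the most Myh7 (1395 CPM of Myh2 against 4096 to 4531 in the other rich libraries).

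The genes most like Myh7 over all 16 libraries, by Pearson's r of log2(CPM + 0.5) among genes with a mean of at least 2 CPM, were Tnni1 (0.99), Tnnc1 (0.99), Tnnt1 (0.98), Myl3 (0.97), Atp2a2 (0.97) and Tpm3 (0.94). All 6 belong to the slow list. The values come from the same libraries and share their depth and scaling, and they describe the order of the libraries only.

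Within protein pairs that have a slow and a fast gene, levels were divided by the gene's exon length so that genes could be compared. On this scale Myh7 made up 0.994 to 2.06% of the adult myosin heavy chain RNA (Myh7, Myh2, Myh1 and Myh4 together) in the rich set and 0.00528 to 0.101% in the poor set. The slow gene's share of troponin I had a median of 1.43% in the rich and 0.0322% in the poor set, that of troponin C 2.14% and 0.0614%, and that of troponin T 1.09% and 0.0404%. The calcium pump's slow share had medians of 1.53% and 0.0909%. Fast genes made up most of the RNA of each pair in the slow-rich samples too.

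Some slow genes kept a larger share in the poor set. Casq2 made up a median of 2.22% of calsequestrin RNA in the rich and 0.388% in the poor set, and Myoz2 6.13% and 1.05% of its pair with Myoz1. Myl3 had the highest slow share of the rich set, 7.05 to 10.2% of its pair with Myl1, against 0.168 to 1.82% in the poor set.

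Fast genes differed far less. Of 21 fast sarcomere and calcium genes none was separated by 2-fold, 17 were lower in the mean of the rich set, and the median log2 difference was -0.19. Of the fast genes, 7 had sets that did not overlap at a smaller size, all lower in the rich set: Myh4 (-0.50), Atp2a1 (-0.44), Actn3 (-0.41), Ryr1 (-0.37), Cacna1s (-0.29), Mylk2 (-0.25) and Myoz1 (-0.25). These encode the type IIB myosin, the fast calcium pump, the fast alpha-actinin, the calcium release channel, its voltage sensor, a light chain kinase and a Z-disc protein. Over all genes, 1.64% were lower without overlap. Myh4 was at 51155, 45534, 40238, 43034 and 41736 CPM in the rich and at 72793, 60055, 52146, 65629 and 63913 CPM in the poor libraries. Per exon length its median share of adult myosin heavy chain was 78.2% in the rich and 91.3% in the poor set.

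The myosins of the faster oxidative fibres did not order the libraries as Myh7 did. Myh2, the type IIA myosin, was at 1395, 4531, 4096, 4465 and 4462 CPM in the rich and at 1515, 2755, 1272, 1973 and 1404 CPM in the poor libraries. Injured placebo 3, highest of all in Myh7, was within the poor range, and the other 4 rich libraries were above it. Myh1, the type IIX myosin, showed the same split, at 3556 CPM in injured placebo 3, 7271 to 9422 in the other rich libraries and 3975 to 6438 in the poor set. Of the libraries between, healthy placebo 2, healthy inhibitor 3 and injured placebo 1 had 3551 to 3818 CPM of Myh2, and the other 3 had 1220 to 1312. Actn2, the alpha-actinin of all fibre types, had 605 CPM in injured placebo 3, 993 to 1360 in the other rich libraries and 361 to 782 in the poor set. Without injured placebo 3, singled out here after its values were seen, Myh2, Myh1 and Actn2 were higher without overlap and 10 fast genes lower. In that setting 4.56% of all genes were higher and 3.21% lower without overlap, against 2.72% and 1.64% with all 10 libraries.

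Genes of oxidative metabolism were divided by the same library. Mb, the oxygen-binding myoglobin, was at 1091, 2583, 2263, 2269 and 1737 CPM in the rich and at 963, 1062, 791, 1037 and 900 CPM in the poor libraries. It was the only 1 of 26 genes for myoglobin and fatty acid oxidation that was separated, by a log2 difference of 1.01, and scaling by TMM (trimmed mean of M values, edgeR's library scaling) ended that call. The list's median was 0.30. Fabp3, the fatty acid carrier of heart and oxidative muscle, had 280 ± 61.8 CPM in the rich and 144 ± 35.4 in the poor set, with overlap. Without injured placebo 3, 13 of the 26 did not overlap, all higher in the rich set, beside 4.56% of all genes.

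In the tricarboxylic acid cycle, 4 of 19 enzymes did not overlap, all higher and under 2-fold, beside 2.72% of all genes higher without overlap. Idh2, the mitochondrial isocitrate dehydrogenase, had 279 ± 49.7 CPM in the rich and 144 ± 21.5 in the poor set, a log2 difference of 0.95, and Fh1, Sdhc and Sdhd were the others. Of 38 nuclear genes of oxidative phosphorylation 7 did not overlap, all higher, beside the same 2.72% of all genes. The median over the list was 0.21. Cox6c, a subunit of complex IV, had the largest difference, 347 ± 43.0 CPM against 245 ± 25.2 (0.50). Under TMM scaling none of the 38 and 1 of the 19 enzymes did not overlap (1.85% of all genes were higher), while without injured placebo 3 the counts were 19 and 11. None of the 13 mitochondrially encoded genes was separated, and their median was 0.24.

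Of 24 genes of glycolysis and glucose uptake 2 did not overlap, both lower in the rich set: Aldoa (aldolase A) and Pygm (muscle glycogen phosphorylase), at -0.22 and -0.33. Over all genes, 1.64% were lower without overlap. The median of the 24 genes was -0.07. Ldhb, the heart form of lactate dehydrogenase, went the other way, with 236 ± 72.1 CPM against 124 ± 32.6 and overlapping sets.

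**Figure D3:**
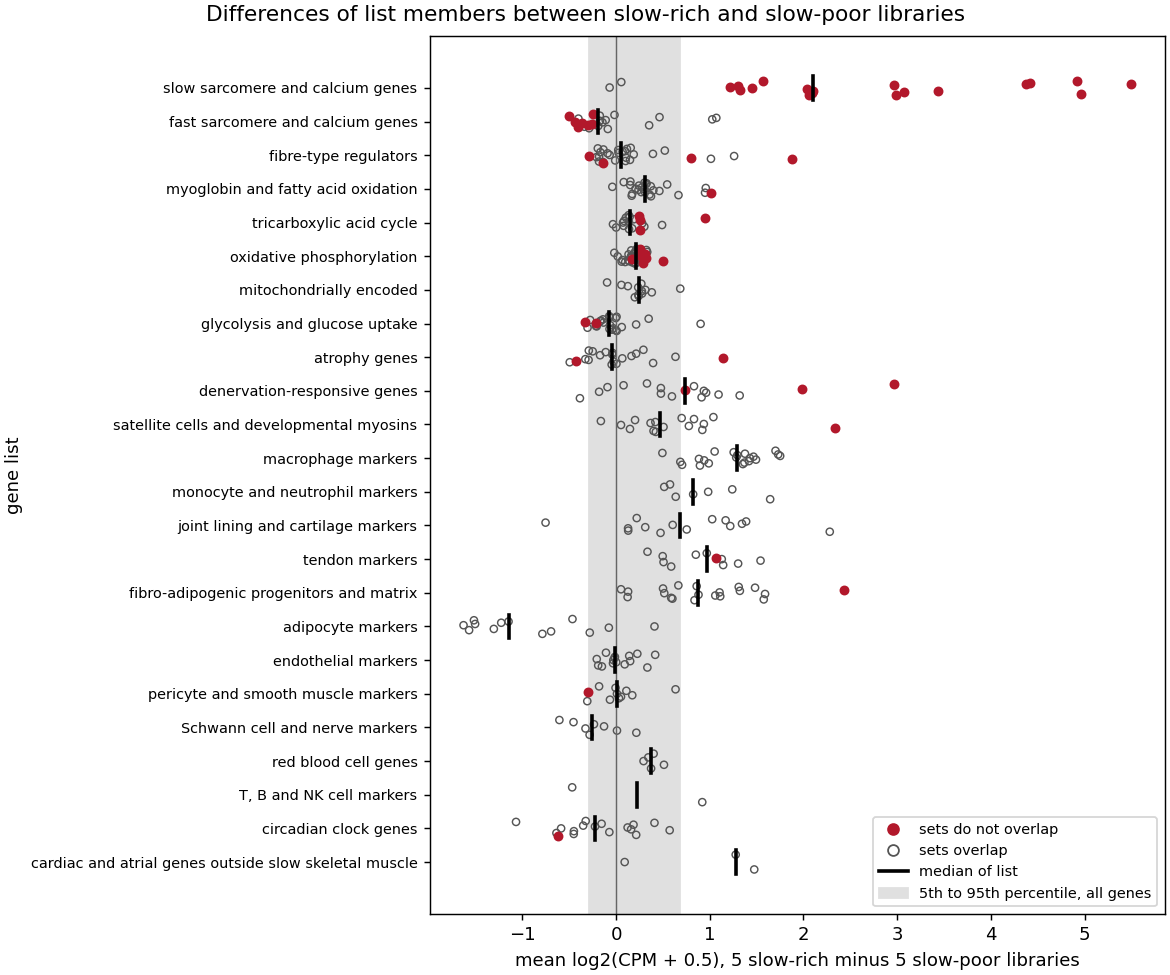
Difference of mean log2(CPM + 0.5) between the 5 slow-rich and the 5 slow-poor libraries (x axis) for each measured gene of 24 lists (y axis), with filled red points where the sets do not overlap and open points where they do. Black bars mark list medians (2.10 for the slow list, -0.19 for the fast list) and the grey band the range of 90% of all genes, -0.28 to 0.69.

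Among 28 regulators of fibre type, Prox1 was the only gene separated by 2-fold. Prox1 is a homeobox transcription factor known from work on slow fibre identity. It was at 4.36, 5.19, 5.09, 3.73 and 5.90 CPM in the rich and at 0.877, 1.54, 0.553, 0.858 and 1.03 CPM in the poor libraries (log2 difference 1.88), and at 2.13 to 4.32 CPM between. The sets were far apart, and over all 16 libraries Pearson's r of Prox1 with Myh7 was 0.91. Within the rich set Prox1 did not follow the order of Myh7 and spread less, with SDs of log2(CPM + 0.5) of 0.23 and 0.43.

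Rcan1, a calcineurin target and inhibitor, was higher without overlap at a smaller size (0.79), and Tbx15 (-0.29) and Mef2d (-0.14) were lower. The regulators Sox6 (-0.14), which represses slow genes, Nfatc1 (0.03), the calcineurin-activated factor, Ppargc1a (0.19), the coactivator of mitochondrial genes, and Eya1 (-0.21), which acts for fast genes, all overlapped. Esrrg, an oestrogen-related receptor, had 47.5 ± 15 CPM in the rich and 19.5 ± 7.32 in the poor set and overlapped, as injured placebo 3 was at 21.4. The median of the 28 genes was 0.05, close to that of all genes.

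Outside the slow list, 60 genes were separated and higher in the rich set, 53 of them in none of the lists. Of the 60, 23 also did not overlap in either limb state when the 3 highest and 3 lowest libraries of injured limbs, and of healthy limbs, were compared alone, as did 12 slow genes. Over all genes 113 (0.859%) were higher without overlap in both limb states. Of the other 37, 7 did not overlap in injured limbs alone, 22 in healthy limbs alone and 8 in neither. The limb sets reuse libraries of the main sets: 3 rich and 2 poor in injured limbs, 1 rich and 3 poor in healthy limbs. A part of this was thus fixed when the genes were chosen. The 0.859% is not a like background for such genes, and these counts are not a separate check.

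Lgi1, a secreted protein best known from neurons, was at 3.97, 4.48, 4.06, 4.18 and 3.18 CPM in the rich and at 0.343, 1.46, 0.354, 0.286 and 0.576 CPM in the poor libraries. Inpp4b, a phosphatase of phosphoinositide signals, was at 26.6, 37.0, 30.9, 35.6 and 30.7 CPM against 8.81, 12.6, 8.48, 10.1 and 6.67. P3h2, a prolyl hydroxylase of basement membrane collagens, was nearly constant in the rich set, at 5.56 to 6.11 CPM, and at 1.07 to 2.34 CPM in the poor set. Injured inhibitor 4 was the highest of the poor libraries in each of these 3 genes. Pdlim1, a Z-disc adaptor, had 38.0 ± 3.68 CPM against 12.4 ± 4.00. All 4 did not overlap in either limb state.

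The same held for H19, an imprinted non-coding RNA, at 982 to 1562 CPM in the rich and 351 to 607 CPM in the poor set, and for Xpo4, a nuclear transport receptor, with 32.1 ± 6.76 CPM against 12.7 ± 1.44. It held as well for Dio2, which activates thyroid hormone, with 4.75 ± 1.24 CPM against 1.59 ± 0.745. Both H19 and these 2 genes lie outside all lists and were picked after their values were seen. Tpm3-rs7, with 59.2 ± 21.3 CPM against 7.60 ± 1.62, is annotated on chromosome 14 as a related sequence of Tpm3, which lies on chromosome 3, and its counts cannot be told apart from reads of Tpm3 with these files. Ndrg4 (log2 difference 1.95), Rab15 (1.89), Npr3, a natriuretic peptide clearance receptor (1.73), Prune2 (1.73), Uchl1, a ubiquitin hydrolase (1.61), Nlrc3 (1.52) and Ttc9 (1.40) completed the genes named for the size of their difference. Of these, Rab15, Npr3, Prune2, Uchl1, Nlrc3 and Ttc9 overlapped in 1 or both limb states.

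The 2 genes that were separated and lower in the rich set were Six2, a homeobox transcription factor, and Dkk3, a secreted protein of the Dickkopf family. Six2 was at 11, 10.8, 5.82, 10.7 and 6.23 CPM in the rich and at 29.5, 19.8, 29.8, 23.6 and 29.3 CPM in the poor libraries, with 11.6 to 26.9 CPM between. It was lower without overlap in injured limbs alone and in healthy limbs alone, in sets that share libraries with the main sets. Dkk3 was at 17.3, 14.4, 10.8, 17.2 and 5.48 CPM in the rich and at 37.5, 21.3, 71.6, 32.4 and 41.4 CPM in the poor libraries. In healthy limbs alone the Dkk3 sets overlapped. The libraries between had 30.9 to 57.4 CPM of Dkk3, like the poor set, so that Dkk3 set the 5 rich libraries apart but did not grade with Myh7 below them.

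**Figure D4:**
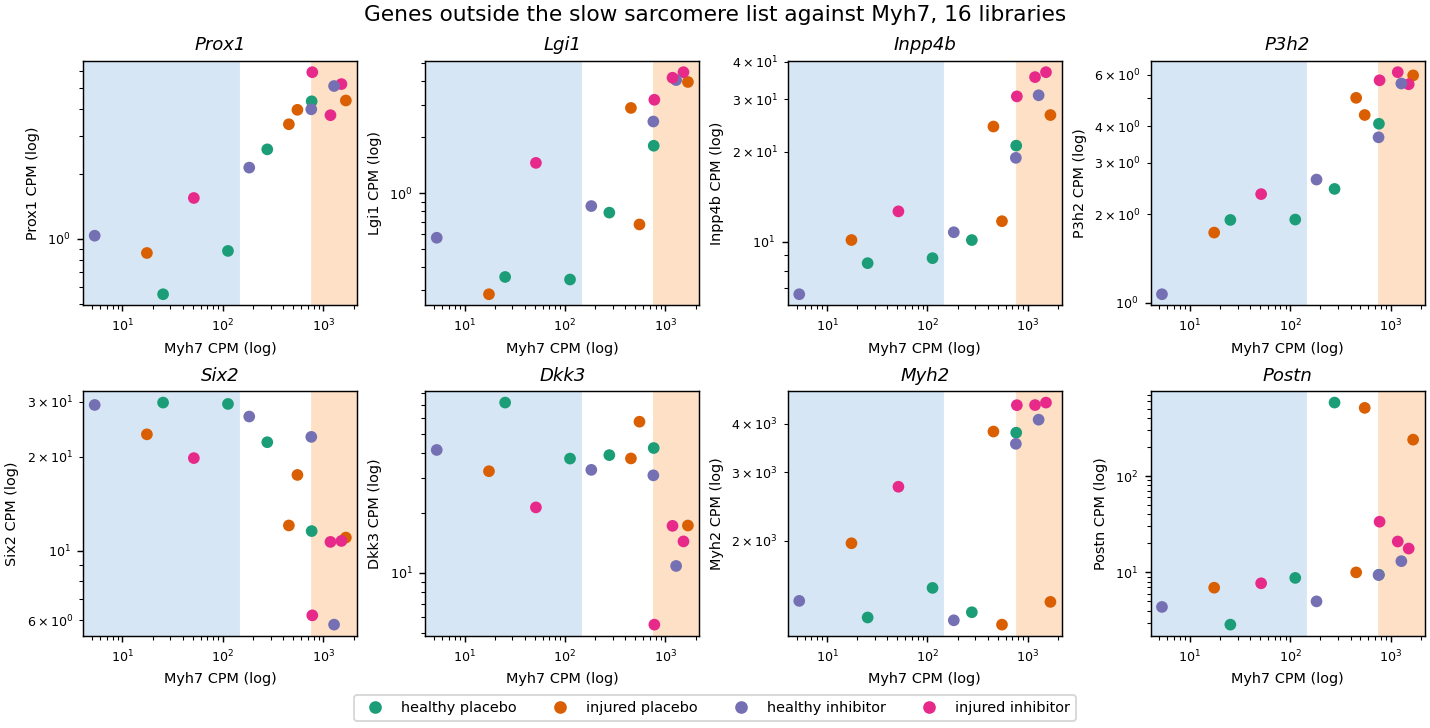
CPM of 8 genes (y axes, log scale) against Myh7 CPM (x axes, log scale) in 16 libraries coloured by labelled group, with the slow-rich range shaded orange and the slow-poor range blue. Prox1, Lgi1, Inpp4b and P3h2 are higher and Six2 and Dkk3 lower in every rich library than in every poor library, Myh2 is low in injured placebo 3 (1395 CPM), and Postn exceeds 200 CPM in 3 of the libraries high in Prg4 (238, 509 and 578 CPM).

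Markers of connective tissue and immune cells also differed between the sets, mostly with overlap. Of 20 genes of fibro-adipogenic progenitors and matrix, 1 was separated, the median was 0.87, and the summed level was 1281 to 5406 CPM in the rich and 697 to 1868 CPM in the poor set. That gene was Postn, periostin of injured matrix, at 238, 17.7, 13.1, 20.9 and 33.6 CPM in the rich and at 2.87 to 8.77 CPM in the poor set. Of 11 tendon markers Scx, the tendon transcription factor, was separated (1.07), and the summed level was 302 to 589 CPM against 128 to 300 without overlap. The 14 joint lining and cartilage markers had no separated member, a median of 0.68 and sums of 389 to 882 against 319 to 387 CPM, also without overlap. The part of these tissues in the genes that were separated was not tested.

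None of 21 macrophage markers was separated, all 21 were higher in the mean of the rich set, the median was 1.29, and their sum was 79.9 to 1417 CPM against 46 to 166. None of the 7 measured monocyte and neutrophil markers was separated (median 0.82, sum 64.1 to 856 against 23.8 to 80.8 CPM). Without the 4 libraries highest in Prg4 the macrophage median was 0.44 and that of the slow list 2.19. In that setting 18 of the 20 slow genes did not overlap, beside 5.76% of all genes. The 18 could not become fewer, since the setting only takes libraries out of sets in which these genes already did not overlap. No tabled marker of these lists was at 0 in all 10 libraries.

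The adipocyte list had a median of -1.15 and no separated member among 13. Cidec, a lipid droplet protein, had 11.4 ± 10.6 CPM in the rich and 39.1 ± 37.7 in the poor set. The direction was not the same in the limb states, with medians of -1.79 in injured and 0.43 in healthy limbs alone. The 15 endothelial genes (median -0.01), 5 red blood cell genes (0.37), 2 T, B and NK cell genes (0.23) and 8 Schwann cell genes (-0.26) had no separated member, and 1 of 11 pericyte and smooth muscle genes, Abcc9, was lower at -0.30. Of the cardiac genes outside slow skeletal muscle, 3 of 8 had at least 1 CPM, and none was separated. Myh6, the atrial myosin gene that lies beside Myh7 on chromosome 14, differed by 0.09, Tnnt2, cardiac troponin T, by 1.47 and Myl4, the atrial light chain, by 1.28. The 3 genes summed to 7.27 to 101 CPM in the rich and 5.28 to 11.5 in the poor set, with a median difference of 1.28, which was 0.55 without injured placebo 3 and 0.48 without the 4 libraries highest in Prg4.

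Genes of atrophy, denervation and regeneration mostly overlapped between the sets. Of 20 atrophy genes Mt2, a metallothionein, was separated (1.14), Mstn, myostatin, was lower without overlap (-0.43), and the median was -0.04. Of 17 denervation-responsive genes Sln and Rrad, a calcium channel regulator (1.99), were separated, and Chrna1, an acetylcholine receptor subunit, did not overlap (0.74). In the mean of the rich set 14 of these 17 were higher, with a median of 0.74, which was 0.35 without injured placebo 3 and 0.22 without the 4 libraries highest in Prg4. Of 16 genes of satellite cells and developmental myosins only Myh3, embryonic myosin, was separated, with 280 CPM in injured placebo 3, 3.83 to 9.65 CPM in the other 4 rich libraries and 1.07 to 2.99 CPM in the poor set. Of the 16, 15 were higher in the mean of the rich set, with a median of 0.47 that was 0.22 without injured placebo 3. Of 17 clock genes Hlf was lower without overlap (-0.62), and Dbp, which differed by -1.07, overlapped.

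The spread of Myh7 lay within the labelled groups as much as between them. Under placebo, Myh7 had 295 ± 330 CPM in healthy and 675 ± 707 CPM in injured limbs, and under the inhibitor 557 ± 579 in healthy and 880 ± 629 in injured limbs (SD, n = 4 each). The highest library of a group exceeded its lowest 30.2-fold, 95.7-fold, 242-fold and 29.5-fold in that order. All 4 groups overlapped.

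Limbs of the same animal differed widely as well. From the healthy to the injured limb, Myh7 went from 5.29 to 1178 CPM in inhibitor animal 2, from 112 to 1676 in placebo animal 3 and from 25.4 to 454 in placebo animal 1. It went from 277 to 17.5 CPM in placebo animal 4 and from 183 to 51.4 in inhibitor animal 4. The other 3 animals had like levels in both limbs, 1279 and 1514, 759 and 776, and 765 and 552 CPM. The injured limb was higher in 5 of 8 animals, by a mean of 1.22 ± 3.75 log2 units (SD), and a two-sided exact permutation test over all sign patterns gave p = 0.43. Animal means were 0.50 log2 units higher with inhibitor than with placebo, 8.25 ± 2.07 against 7.75 ± 1.54 (4 animals each, two-sided exact permutation test over 70 arrangements, p = 0.6). Leaving out inhibitor animal 1 or placebo animal 4 turned that direction, to -0.23 and -0.04.

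**Figure D5:**
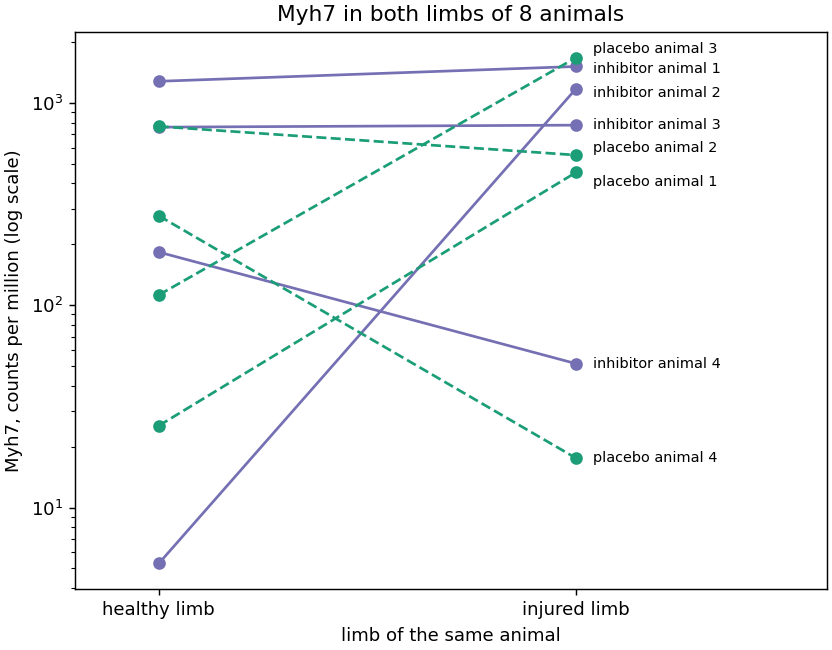
Myh7 in CPM (y axis, log scale) in the healthy and the injured limb (x axis) of 8 animals, with solid lines for inhibitor and dashed lines for placebo animals. Lines cross in both directions, with 5 of 8 animals higher in the injured limb and the steepest line from 5.29 to 1178 CPM.

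In 2 animals, inhibitor animal 2 and placebo animal 3, the healthy limb was in the poor and the injured limb in the rich set, so the direction of every separated gene between their limbs was fixed by the choice of genes and is not read. In inhibitor animal 1 both limbs were in the rich set. In placebo animals 1 and 4 and inhibitor animal 4 only 1 limb was in a set, the poor one, which fixes a part of the direction. The same holds for inhibitor animal 3, whose injured limb was in the rich set and whose healthy limb was between the sets. In placebo animal 1, where the injured limb had more Myh7, all 17 other separated slow genes and all 12 higher genes named outside the lists were higher in that limb, with a median of 2.22 log2 units for the slow genes, Prox1 higher by 1.88 and Six2 at -1.27. In placebo animal 4, where the healthy limb had more, 12 of the 17 and 11 of the 12 were higher in the healthy limb, and Six2 differed by 0.08. Inhibitor animal 4 also had more Myh7 in the healthy limb, but only 7 of the 17 slow genes and 6 of the 12 others followed it, and the slow median was 0.28 in the direction of the injured limb. The slow genes that followed included Tnni1 (-1.561 log2 units, injured minus healthy), Tnnc1 (-1.615), Myl3 (-1.385), Atp2a2 (-0.68) and Tpm3 (-0.39), beside -1.822 for Myh7. Some slow genes of the list thus did not go with Myh7 between limbs, while both other markers did in this animal.

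Among the animals with like levels of Myh7 in both limbs, the genes that had the same direction as Myh7 numbered 10 of 17 and 4 of 12 in placebo animal 2, 16 of 17 and 6 of 12 in inhibitor animal 1, and 11 of 17 and 12 of 12 in inhibitor animal 3. The counts of inhibitor animal 3 are not read, since the genes were chosen for high values in its injured limb among others.

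The labelled groups were not used to rank the libraries, so slow genes could be tested over them. In edgeR's quasi-likelihood test over 15411 genes, with Benjamini-Hochberg adjustment, no gene passed 0.05 for injury averaged over placebo and inhibitor (0% called; 757 genes at an unadjusted p under 0.05; 0 calls by DESeq2 and by limma). Myh7 was higher in injured limbs by 0.86 ± 1.01 log2 units (SE, adjusted p = 0.867), Tnni1 by 1.03 ± 0.95 (0.841) and Tnnc1 by 1.16 ± 0.94 (0.828). Of the 20 slow genes 18 had a positive difference, with a median of 0.79 against 0.01 for all genes, and none passed.

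For the inhibitor, averaged over limbs, 45 genes passed by edgeR (0.292%), 299 by DESeq2 and 14 by limma, and none of the 45 was in the slow list or among the 80 separated genes. The drink was given to whole animals, but the edgeR and DESeq2 fits counted both limbs of an animal as independent. Of these fits only limma allowed for a correlation within animals, estimated at 0.016. Myh7 differed by 0.76 ± 1.01 (edgeR adjusted p = 0.775), Tnni1 by 0.57 ± 0.95 (0.826) and Tnnc1 by 0.71 ± 0.94 (0.775), and the median of the slow list was 0.55. Leaving out any 1 of healthy placebo 2 or 4, injured placebo 2 or 3 and the 8 inhibitor libraries moved the count of 45 to between 3 and 21, and leaving out any other library gave 34 to 59. For the difference of the injury effects between inhibitor and placebo no gene passed (0% called; 423 at an unadjusted p under 0.05; 0 by DESeq2 and by limma), and Myh7 differed by -0.36 ± 2.01 (edgeR adjusted p = 0.998). With standard errors near 1 log2 unit, a 2-fold difference of Myh7 between groups was not detectable here.

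When log2 Myh7 was added to the model as a covariate, the standard errors of slow genes became smaller. This was largely fixed in advance, since these genes follow Myh7 over the same libraries. The other genes named here were picked from the ranking by Myh7. Myh7 could itself differ with injury, so the values with the covariate are described only. For injury, Tnni1 went from 1.03 ± 0.95 to 0.09 ± 0.11, Tnnc1 to 0.16 ± 0.15, Atp2a2 from 0.87 ± 0.69 to 0.20 ± 0.19, Tpm3 from 0.76 ± 0.64 to 0.20 ± 0.21 and Prox1 from 0.43 ± 0.45 to 0.09 ± 0.21. Six2 and Dkk3 kept more of theirs, from -0.78 ± 0.35 to -0.54 ± 0.26 and from -0.79 ± 0.33 to -0.59 ± 0.31. Embryonic myosin Myh3 went from 2.51 ± 0.78 to 1.71 ± 0.68, and Postn from 0.77 ± 1.07 to 0.11 ± 1.12, with a standard error that did not become smaller. None of these passed the adjusted threshold in either model. With the covariate, 58 genes passed for the inhibitor, 43 of them among the 45, and none for injury or for the difference. The common biological coefficient of variation over all genes was 0.284 without and 0.266 with the covariate.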

How the data were processed

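The RNA of 16 mouse quadriceps (4 groups of 4) was analysed. The values the authors deposited are estimated counts per Ensembl gene, not normalized; how the counting was done is not given in the sources used here. Of these values 33.8% were not whole numbers, and every gene listed reached a count of 10 in at least 1 library. Tools named in the submitters' processing notes are DESeq2, Partek and STAR, and the builds GRCm38 and mm10, without version, role or order. The annotation release and strand setting are not given in the sources used here. Symbols and positions came from GENCODE by Ensembl ID (17338 of 17370 matched).

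CPM used the column totals of the deposited values, 20.1 to 27.1 M (mega), and a floor of 3 counts covers counting error only. A pseudocount of 0.5 CPM and a mean of at least 1 CPM were used for set differences. Counts were rounded and fitted with edgeR 4.0.16 in R 4.3.3 (filterByExpr with minimum count 10, TMM, robust quasi-likelihood, 4 group means, 12 residual degrees of freedom), two-sided, adjusted by Benjamini-Hochberg at 0.05. DESeq2 1.42.0 and limma 3.58.1 were alternatives, limma alone with a correlation within animals. The labels call the libraries of a group biological replicates but do not name the animals, which were read from the pairing of names. A p-value here reflects only how these samples scatter.

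The members and the 24 lists (416 genes) were chosen with earlier results of these data known. Named genes were the 3 markers, the slow list, Myh4, Myh1, Myh2 and the fast genes of largest difference, the 12 highest and up to 10 lowest separated genes outside the lists (2 were lower) with a mean of at least 2 CPM (predicted genes left out), the 2 largest differences of each other list, and the 6 genes most like Myh7; not all are printed. Members that did not overlap at a smaller size, regulators that overlapped, and H19, Xpo4 and Dio2 were picked after their values were seen.

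Limbs of an animal were checked for pairing: correlations of their deviations from the group means were 0.47, -0.18, -0.11 and -0.53 for placebo animals 1 to 4 and 0.23, -0.04, -0.01 and -0.10 for inhibitor animals 1 to 4. Alternatives were other set sizes, rankings, scalings, pseudocounts and filters, other tools, blocks by animal or replicate number, the Myh7 covariate, removal of the 4 libraries highest in Prg4 and of each library in turn; comparisons within injured and within healthy limbs were chosen after seeing the data.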

Additional observations from a re-analysis of the deposited data

Results flagged for a closer look

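Six2 in healthy inhibitor 1 stood apart from its group, at 5.82 CPM against 23.1 to 29.3 CPM in the other 3 healthy inhibitor libraries. It is the library of that group in the slow-rich set, with 1279 CPM of Myh7. The gap to the nearest library was 0.851 of the whole range of the group, on the scale of log2(CPM + 0.5). It was the only 1 of 40 groups of 4 libraries (10 genes in 4 groups) with such a gap, and chance gives one in about 1 of 20 groups. That rate is not a like background here, since the 10 genes were picked from these data. Six2 was chosen for being lower in every rich than in every poor library, which fixes a part of this gap.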

How the results depend on the processing

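The count of 78 higher and 2 lower separated genes changed with the make-up of the sets. With 4 libraries a set 105 were higher and 31 lower, with 6 a set 64 and 1, and when ranked by Tnni1 91 and 1. For deviations from the group mean the counts were 114 and 1, and without the 4 libraries highest in Prg4 99 and 4. In that order, 73, 61, 64, 53 and 58 of the 78 higher genes were still separated by 2-fold. The deviations from the group mean also kept only 3 of the 5 rich libraries. Within injured limbs alone 50 were higher and 75 lower, and within healthy limbs alone 175 and 1. Leaving out single libraries gave 69 to 191 higher (191 without injured inhibitor 2, 141 without injured inhibitor 4) and 2 to 31 lower (31 without healthy placebo 3). Of the 20 slow genes 12 were separated by 2-fold in injured limbs alone and 16 to 18 in each other of these settings. Of 798 alternative values of the 38 named separated genes none turned direction, and 54 were no longer separated by 2-fold. Most of these settings kept the same libraries or only dropped some of them. The direction of genes chosen for sets without overlap was thus largely fixed in advance, and its constancy is not a separate check.

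The inhibitor count of 45 was 299 with DESeq2, 14 with limma, 3 without the 4 libraries highest in Prg4 and 3 to 59 without single libraries, with 3 to 21 for 12 of the 16 libraries. The cause was not tested. Of the tools only limma allowed for a correlation within animals, and the others counted both limbs of an animal as independent. With the replicate number as a block the inhibitor count was 35. The limbs' correlations do not show that the numbers or names pair the samples, and with the animal as a block Myh7 differed by 0.80 for injury and by -0.49 for the difference, with no gene called.

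The difference of injury effects in Myh7 (-0.36) turned to 0.80 with limma, 0.42 with the replicate number as a block and 1.96 without the 4 libraries, and ranged from -1.46 to 0.64 without single libraries. Tnnc1 turned to 0.11 with limma and 2.14 without the 4 libraries, and Tnni1 to 0.13 and 2.05; without single libraries they ranged from -1.95 to 0.41 and from -1.91 to 0.20. Tnni1 under the inhibitor was -0.019 with the Myh7 covariate. Inhibitor against placebo animals ranged from -0.23 to 1.12 in Myh7 without single animals, and -0.04 without placebo animal 4. None of these passed a threshold. A floor of 3 counts was 0.111 to 0.149 CPM, below the lowest value of each marker (0.774 CPM for Tnni1).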
